A study of Homo sapiens with 8 samples.

Results

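The genes described here encode enzymes that reverse DNA alkylation directly or repair damaged bases by excision: MGMT, ALKBH2, ALKBH3, MPG, UNG, OGG1, APEX1, XRCC1, PARP1 and POLB. They were chosen by name, as the transcript clusters (probe groups of the array) whose only annotated gene symbol is one of these 10. Each of the 10 genes had 1 such cluster, among 18417 genes in the table. RNA came from U266/LR7, a melphalan-resistant multiple myeloma line, and U266/s, described as its parental line, and was hybridised to 8 one-colour Affymetrix arrays. In U266/LR7 and in U266/s, 1 array each was made with melphalan 100 µM plus 100 nM inhibitors of miR-221 and miR-222, with melphalan alone, with the inhibitors alone, and with a negative control oligonucleotide and no drug. RNA was collected 12 h after treatment. The sources used here do not give the number of clones behind the resistant line. On the melphalan-alone arrays the transfection label reads none, while the growth protocol reads as if all cells without inhibitors had received the negative control. A melphalan difference between arrays without inhibitors may thus also hold a transfection difference. No condition was replicated, so each error below comes from 1 model over all 8 arrays.

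Melphalan is a nitrogen mustard that alkylates DNA bases, mainly ring nitrogens of guanine and adenine, and can bridge both strands. MGMT removes alkyl groups from the oxygen of guanine by transferring them to its own cysteine, and is used up in doing so. ALKBH2 and ALKBH3 are iron-dependent dioxygenases that oxidise alkyl groups off base nitrogens, ALKBH3 with a preference for single-stranded DNA and RNA. Base excision repair starts with a DNA glycosylase that cuts out the damaged base: MPG for alkylated purines, UNG for uracil and OGG1 for oxidised guanine. APEX1 then incises the abasic site, PARP1 senses the strand break, XRCC1 is the scaffold, and POLB, DNA polymerase beta, fills the gap before ligation.

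Promoter windows of 300 bases (250 before and 50 after the annotated start) came from RefSeq, build GRCh38.p14, and were matched for 9 of the 10 genes, all but POLB. Those of the members with the largest difference between the lines in each direction without melphalan are shown. MGMT and PARP1 had lower signal in U266/LR7, and ALKBH2 and OGG1 higher signal. Capitals mark 4 searched motifs on either strand: the GC box GGGCGG, the CCAAT box CCAAT, the ETS site CCGGAAGT and the E-box CACGTG. No marked motif overlaps another in these windows.
MGMT, chr10:129466991-129467290, plus strand: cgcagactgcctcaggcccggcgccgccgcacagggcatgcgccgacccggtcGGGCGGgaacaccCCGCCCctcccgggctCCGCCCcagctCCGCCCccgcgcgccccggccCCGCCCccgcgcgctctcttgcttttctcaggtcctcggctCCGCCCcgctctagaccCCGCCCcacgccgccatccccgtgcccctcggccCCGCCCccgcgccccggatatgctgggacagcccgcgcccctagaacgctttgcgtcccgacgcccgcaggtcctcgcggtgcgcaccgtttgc
PARP1, chr1:226408044-226408343, minus strand: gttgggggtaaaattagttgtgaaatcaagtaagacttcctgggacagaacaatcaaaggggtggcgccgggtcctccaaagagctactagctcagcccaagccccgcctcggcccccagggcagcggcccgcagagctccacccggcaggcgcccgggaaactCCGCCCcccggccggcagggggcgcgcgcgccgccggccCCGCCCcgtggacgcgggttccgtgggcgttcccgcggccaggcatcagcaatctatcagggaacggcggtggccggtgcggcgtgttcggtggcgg
ALKBH2, chr12:109093423-109093722, minus strand: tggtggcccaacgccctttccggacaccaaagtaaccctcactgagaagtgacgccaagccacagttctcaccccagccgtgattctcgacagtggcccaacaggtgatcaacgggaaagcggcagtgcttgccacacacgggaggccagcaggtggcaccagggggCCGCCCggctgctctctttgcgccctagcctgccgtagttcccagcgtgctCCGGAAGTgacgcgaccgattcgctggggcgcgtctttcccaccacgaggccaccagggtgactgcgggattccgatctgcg
OGG1, chr3:9749702-9750001, plus strand: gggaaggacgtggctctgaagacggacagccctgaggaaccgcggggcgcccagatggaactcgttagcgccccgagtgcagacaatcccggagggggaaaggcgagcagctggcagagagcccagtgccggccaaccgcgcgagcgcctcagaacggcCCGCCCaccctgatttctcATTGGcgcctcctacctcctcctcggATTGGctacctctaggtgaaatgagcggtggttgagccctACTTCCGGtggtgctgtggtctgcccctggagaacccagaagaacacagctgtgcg

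The MGMT window held 8 GC boxes and 45 CpG dinucleotides, more CpG than most of the 35116 windows in the table, whose median was 14 and upper quartile 28. A window with 8 or more GC boxes made up 0.812% of all windows, and one with at least 1 made up 45.0%. The PARP1 window held 2 GC boxes and 33 CpG. The windows of ALKBH2 and OGG1 held 1 GC box each, 24 and 22 CpG, and 1 ETS site each, a motif found in 4.14% of all windows. OGG1 also had 2 CCAAT boxes, present in 34.6% of windows. The E-box, found in 7.26% of windows, was in none of the 4 shown. These matches describe letters only.

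ALKBH2 and UNG are neighbours on chromosome 12 and are transcribed away from each other, with starts 4.125 kb apart and 0 annotated genes between them. In the same build the other members lie apart: MGMT at chr10:129467241-129770983, ALKBH3 at chr11:43880831-43920274, MPG at chr16:77007-85846, OGG1 at chr3:9749952-9791070, APEX1 at chr14:20455226-20457767, XRCC1 at chr19:43543311-43575527, PARP1 at chr1:226360691-226408093 and POLB at chr8:42338494-42371808. ALKBH2 spans chr12:109088189-109093472 and UNG chr12:109097597-109110992. A signal on these arrays sums all transcripts of a gene that its probes meet.

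All 10 plasma cell markers examined were above the lower quartile of genes on every array, among them SDC1 (9.26 to 11.33 log2 units), PRDM1 and IRF4. Of 3 B cell markers measured, 2 lay under it on every array, among them MS4A1 (4.20 to 4.89), and PAX5 (6.40 to 7.08) lay above it. The spread of signal was narrower on both U266/s melphalan arrays, with a range between quartiles over all clusters of 3.34 with and 3.25 without inhibitors, against 3.58 to 3.71 on the other 6 arrays. Differences are in log2 units of RMA signal, in which 1 unit is a 2-fold difference. Signals of different genes are not compared as amounts, since probes differ in brightness.

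Between the lines, MGMT and PARP1 were lower in resistant U266/LR7 than in parental U266/s, and ALKBH2, OGG1, UNG and APEX1 were higher, with and without melphalan. Differences ran up to 2.30-fold. Without melphalan 7 of the 10 genes passed limma's test at an adjusted p of 0.05, 4 higher and 3 lower in U266/LR7, against 34.7% of all 18417 genes (16.9% higher and 17.8% lower). With melphalan 9 passed, 6 higher and 3 lower, against 51.7% of all genes (27.7% higher and 24.0% lower). Among genes above the median signal, 8 of 9 members passed with melphalan, against 67.4% of such genes. Without melphalan 6 of 9 did, against 50.2%. The members' median difference was 0.74 with and -0.06 without melphalan, against -0.08 and -0.04 over all genes. Marker lists differed between the lines too: with melphalan 1 of 6 myeloid markers was higher and 4 were lower, and 5 of 10 plasma cell markers were higher and 2 lower. Without melphalan these were 2 and 0 of the myeloid and 4 and 2 of the plasma cell markers. Their part in the members' differences was not tested. For 8 members the 4 U266/LR7 arrays and the 4 U266/s arrays did not overlap, which held for 31.1% of all genes.

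**Figure D1:**
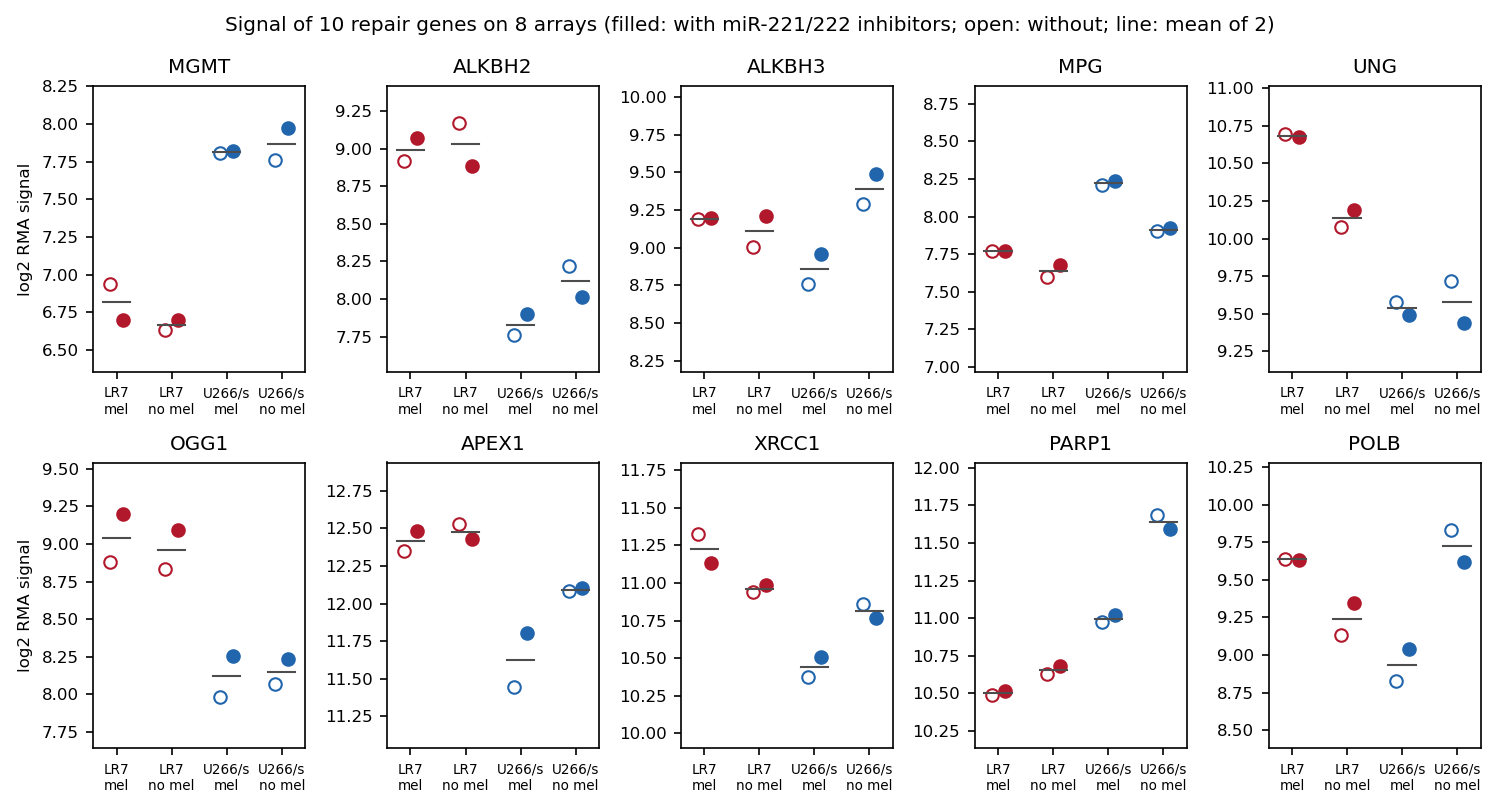
Log2 RMA signal of each gene on the 8 arrays, grouped by line (red, U266/LR7; blue, U266/s) and melphalan (mel), with filled points for arrays with the miRNA inhibitors, open points for arrays without, and a line at the mean of 2. Each panel spans the same number of log2 units. MGMT and PARP1 are lower in U266/LR7, whereas ALKBH2, UNG, OGG1 and APEX1 are higher.

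MGMT, the one-step alkyltransferase, gave a signal in U266/LR7 of 6.70 and 6.94 with melphalan (with and without inhibitors) and of 6.70 and 6.63 without melphalan. In U266/s it gave 7.82 and 7.81 with melphalan and 7.97 and 7.76 without. All 4 U266/LR7 arrays were below all 4 U266/s arrays, and still above the lower quartile of genes, which lay between 5.81 and 6.02. The difference was -0.995 ± 0.15 with melphalan (SE; adjusted p = 0.000207) and -1.20 ± 0.15 without (adjusted p = 6.69e-05), which is 2.30-fold lower in the resistant line without the drug. The call held in all 17 alternative settings tried, in both melphalan states.

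ALKBH2, the dioxygenase that acts on double-stranded DNA, ran the other way. It gave 9.07 and 8.92 with melphalan (with and without inhibitors) and 8.89 and 9.17 without melphalan in U266/LR7, against 7.90 and 7.76 with melphalan and 8.01 and 8.22 without in U266/s. The groups did not overlap. U266/LR7 was higher by 1.16 ± 0.16 with melphalan (2.24-fold, adjusted p = 0.000113) and by 0.91 ± 0.16 without (1.88-fold, adjusted p = 0.00087), in all 18 alternative settings. Its relative ALKBH3 stood at 0.33 ± 0.14 with melphalan (adjusted p = 0.0657) and -0.28 ± 0.14 without (adjusted p = 0.153), and neither passed. The first did with median centring over all clusters (0.46, adjusted p = 0.0231) and without either U266/LR7 array that lacked melphalan (adjusted p = 0.0409 and 0.041). Other settings lowered it, to 0.10 with quantile normalization (adjusted p = 0.583), 0.15 with cyclic loess (adjusted p = 0.412) and 0.03 in the additive model (adjusted p = 0.915). ALKBH3 signal ranged from 9.01 to 9.21 in U266/LR7 and from 8.76 to 9.49 in U266/s, so the U266/LR7 arrays lay inside the U266/s range.

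Among the glycosylases, OGG1, which removes oxidised guanine, gave 9.20 and 8.88 with melphalan (with and without inhibitors) and 9.09 and 8.83 without melphalan in U266/LR7. In U266/s it gave 8.26 and 7.98 with melphalan and 8.23 and 8.07 without, so every U266/LR7 array was above every U266/s array. The difference was 0.92 ± 0.14 with melphalan (adjusted p = 0.000216) and 0.81 ± 0.14 without (adjusted p = 0.000702), again in all 18 settings. UNG, the uracil glycosylase, gave 10.67 and 10.69 with melphalan (with and without inhibitors) and 10.19 and 10.08 without melphalan in U266/LR7, against 9.49 and 9.58 with melphalan and 9.44 and 9.71 without in U266/s. No U266/LR7 array reached down to the U266/s range. It was higher in U266/LR7 by 1.15 ± 0.14 with melphalan (2.21-fold, adjusted p = 4.86e-05) and by 0.56 ± 0.14 without (1.47-fold, adjusted p = 0.00856). The smaller of these was 0.42 (adjusted p = 0.147) without the U266/s inhibitor array.

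MPG, the glycosylase for alkylated purines, was the 1 glycosylase among the members with lower signal in the resistant line, and it passed the test only with melphalan. Its signal was 7.77 on both melphalan arrays and 7.68 and 7.60 without melphalan (with and without inhibitors) in U266/LR7, against 8.24 and 8.21 with melphalan and 7.92 and 7.90 without in U266/s. With melphalan it was lower by -0.45 ± 0.14 (adjusted p = 0.0164), a call that was lost with median centring over all clusters (-0.32, adjusted p = 0.0759) and without any 1 of the 4 melphalan arrays (adjusted p = 0.0686 to 0.139). Without melphalan it stood at -0.28 ± 0.14 (adjusted p = 0.151), although the groups did not overlap.

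Downstream of the glycosylases, PARP1, the sensor of strand breaks, was lower in U266/LR7. It gave 10.51 and 10.49 with melphalan (with and without inhibitors) and 10.68 and 10.63 without melphalan in U266/LR7. In U266/s it gave 11.02 and 10.97 with melphalan and 11.59 and 11.68 without. The highest U266/LR7 array was thus below the lowest U266/s array. The difference was -0.50 ± 0.12 with melphalan (1.41-fold, adjusted p = 0.00449) and -0.98 ± 0.12 without (1.97-fold, adjusted p = 5.2e-05). The first was -0.49 (adjusted p = 0.0538) without the U266/LR7 melphalan array, and the second held in all 18 settings.

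APEX1, the abasic site nuclease, gave 12.48 and 12.35 with melphalan (with and without inhibitors) and 12.43 and 12.53 without melphalan in U266/LR7. In U266/s it gave 11.80 and 11.45 with melphalan and 12.10 and 12.08 without. U266/LR7 was higher by 0.79 ± 0.12 with melphalan (adjusted p = 0.000231) and by 0.39 ± 0.12 without (adjusted p = 0.0262). The difference without melphalan was 0.25 (adjusted p = 0.2) without the U266/LR7 control array, and it was also lost without the U266/s control array (0.44, adjusted p = 0.0871) or the U266/s inhibitor array (0.33, adjusted p = 0.206) and without the intensity trend (adjusted p = 0.0637).

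The scaffold XRCC1 differed between the lines only under the drug by this test. Its signal was 11.13 and 11.32 with melphalan (with and without inhibitors) and 10.98 and 10.94 without melphalan in U266/LR7, against 10.51 and 10.38 with melphalan and 10.77 and 10.86 without in U266/s. The difference was 0.79 ± 0.13 with melphalan (adjusted p = 0.000365) and 0.15 ± 0.13 without (adjusted p = 0.437). In the additive model, which averages the drug states, it was 0.47 (adjusted p = 0.0567). All 4 U266/LR7 arrays lay above all 4 U266/s arrays. The interaction of drug and line for this gene, given further on, passed in the main model but not in every setting.

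POLB, the gap-filling polymerase, changed its order between the lines with the drug. It gave 9.63 and 9.64 with melphalan (with and without inhibitors) and 9.35 and 9.13 without melphalan in U266/LR7, against 9.04 and 8.83 with melphalan and 9.61 and 9.83 without in U266/s. U266/LR7 was thus above U266/s on the melphalan arrays and below it on the others, and over all 8 arrays the lines overlapped. It was higher in U266/LR7 by 0.70 ± 0.15 with melphalan (adjusted p = 0.00274) and lower by -0.48 ± 0.15 without (adjusted p = 0.0289). In the additive model the difference was 0.11 (adjusted p = 0.753). The difference without melphalan was -0.30 (adjusted p = 0.307) without the U266/s control array and -0.37 (adjusted p = 0.135) without the U266/LR7 control array. It also narrowly missed without the U266/LR7 melphalan array or the U266/LR7 array with both treatments (adjusted p = 0.053 and 0.0531).

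**Figure D2:**
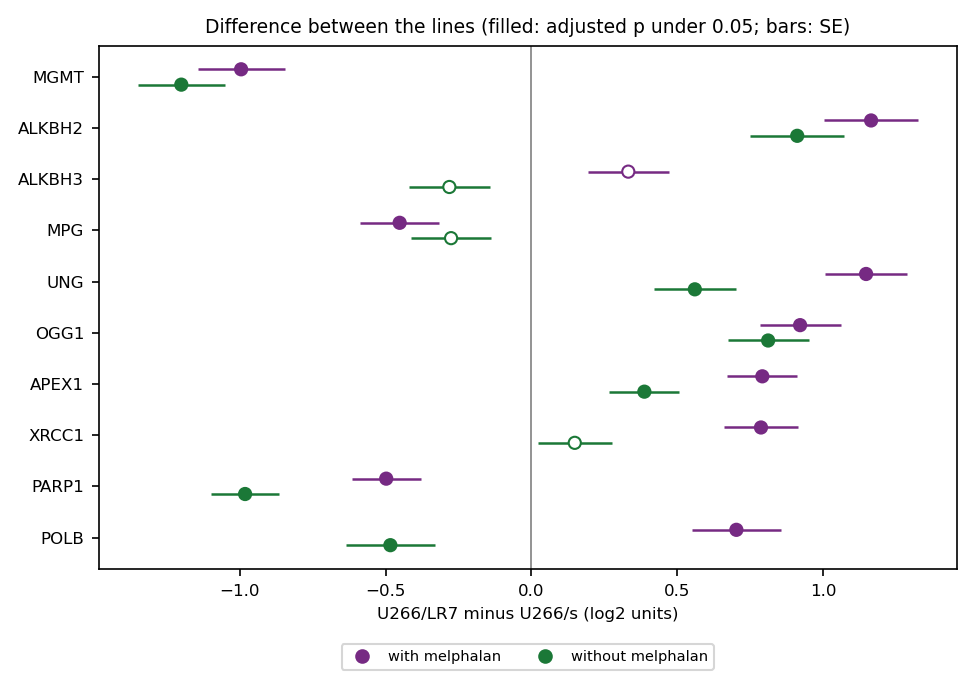
U266/LR7 minus U266/s in log2 units for each gene, with (purple) and without (green) melphalan. Bars are the SE from the model over 8 arrays, and filled points have an adjusted p under 0.05. POLB lies on opposite sides of 0 in the drug states (0.70 and -0.48), while MGMT and PARP1 lie below 0 and ALKBH2, UNG, OGG1 and APEX1 above 0 in both.

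In U266/s, 5 of the 10 genes fell with melphalan and 0 rose: POLB, PARP1, ALKBH3, APEX1 and XRCC1. The background was 24.9% of all genes lower and 18.4% higher (43.4% in all), and the members' median change was -0.33 against 0.08 over all genes. All 5 lie in the brightest quartile of genes. In that quartile 42.7% of genes fell in U266/s and the median change was -0.26, on arrays with the narrower spread given above. The part of this in the 5 falls was not tested. Arrays compare equal amounts of RNA, so lower expression of a gene and a change in the total RNA of the cell cannot be told apart.

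**Figure D3:**
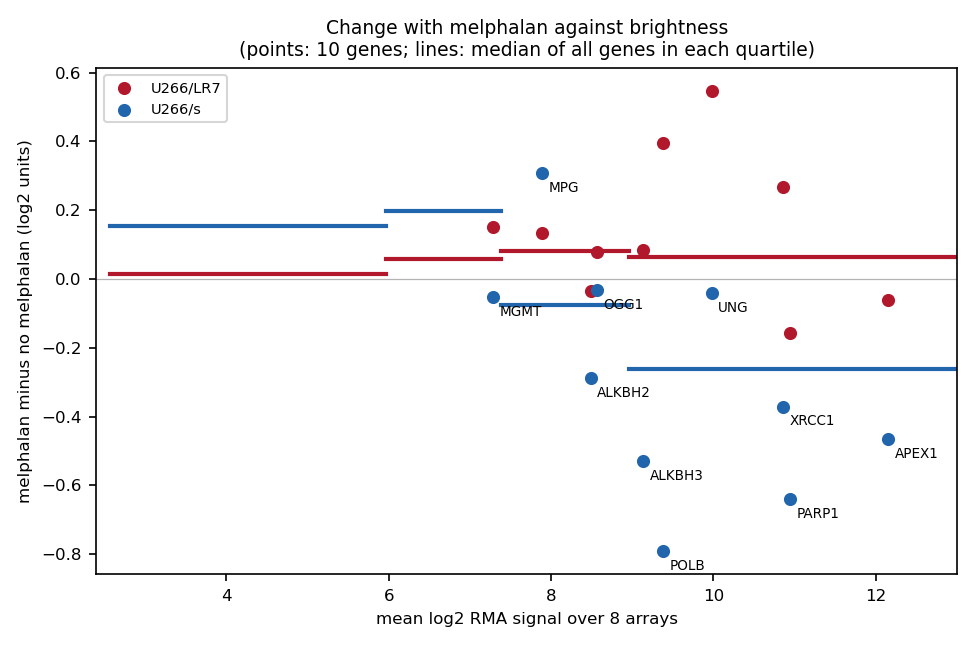
Change with melphalan in log2 units against mean log2 RMA signal over 8 arrays for the 10 genes (red, U266/LR7; blue, U266/s). Horizontal lines give the median change of all genes in each quartile of mean signal. In U266/s the 5 genes that fell lie below the median of the brightest quartile (-0.26), whereas UNG (-0.04) lies above it.

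POLB gave 9.04 and 8.83 in U266/s with melphalan (with and without inhibitors), against 9.61 and 9.83 without. It fell by 0.79 ± 0.15 (1.73-fold, adjusted p = 0.00164), and the fall was 0.61 (adjusted p = 0.0509) without the U266/s control array. PARP1 fell by 0.64 ± 0.12 (1.56-fold, adjusted p = 0.00116), by 0.57 in the pair with inhibitors and 0.71 in the pair without. This call held in all settings but the additive model, which averages both lines. In both genes neither melphalan array reached the arrays without the drug.

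ALKBH3 fell by 0.53 ± 0.14 (adjusted p = 0.0101), equally in the pair with inhibitors (-0.53) and the pair without (-0.53). It did not pass with quantile normalization (-0.37, adjusted p = 0.0568), nor without the U266/s control, melphalan or inhibitor array (adjusted p = 0.0673 to 0.0724). APEX1 fell by 0.47 ± 0.12 (adjusted p = 0.00913), with pair values of -0.30 with and -0.64 without inhibitors. Its call was lost without the U266/s melphalan array (-0.29) and without the control array (-0.41). It was also lost with transfection as 3 levels (negative control, none and inhibitors), at -0.32 (adjusted p = 0.0691). XRCC1 fell by 0.37 ± 0.13 (adjusted p = 0.0356), the weakest of the 5, and kept its call in 7 of 18 settings. It stood at -0.27 (adjusted p = 0.245) without the U266/s melphalan array and -0.33 (adjusted p = 0.233) without the control array.

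The other 5 genes did not pass in U266/s. MPG had a positive change of 0.31 ± 0.14 (adjusted p = 0.0864), almost the same in the pair with inhibitors (0.32) and the pair without (0.30), and passed with quantile normalization (0.40, adjusted p = 0.0362) and with median centring over genes (0.37, adjusted p = 0.0422). With median centring over all clusters it was 0.16 (adjusted p = 0.397). ALKBH2 stood at -0.29 ± 0.16 (adjusted p = 0.165). MGMT (-0.05), UNG (-0.04) and OGG1 (-0.03) had melphalan arrays on both sides of, or within, the values without the drug.

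Over protein-coding genes the change in U266/s also went with the length of the gene. Of genes of 30 to 100 kb 40.4% fell (median -0.17), and 4 of the 5 members that fell, ALKBH3, XRCC1, PARP1 and POLB, are of this length, as is OGG1. Of genes under 10 kb 7.32% fell (median 0.25), and APEX1, at 2.54 kb, is the member of this length that fell. MGMT, at 304 kb, is in the class over 100 kb, where 43.9% fell (median -0.29). The part of length in the members' changes was not tested.

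The marker lists moved as well in this comparison. Of 6 myeloid markers 4 rose in U266/s with melphalan, with a summed log2 signal of 42.7 on both melphalan arrays against 36.9 and 35.4 on the arrays without (with and without inhibitors). CSF1R, which marks macrophages, was at 6.62 and 6.10 with and 6.47 and 6.35 without melphalan. Of 10 plasma cell markers 5 fell and 1 rose. Their part in the members' values was not tested.

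In U266/LR7, UNG was the 1 member that passed, higher with melphalan, against 6.62% of all genes (3.02% higher and 3.61% lower), a share that does not set the members apart. It gave 10.67 and 10.69 with melphalan, against 10.19 and 10.08 without (with and without inhibitors), and the pairs did not overlap. UNG rose by 0.55 ± 0.14 (1.46-fold, adjusted p = 0.043). The call stood near the threshold and held in 5 of 18 settings, and its value without single arrays lay between 0.43 and 0.67. It was 0.43 (adjusted p = 0.128) without the U266/LR7 control array, 0.58 (adjusted p = 0.266) without the melphalan array and 0.51 (adjusted p = 0.332) without the array with both treatments.

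POLB stood at 0.40 ± 0.15 (adjusted p = 0.169) and XRCC1 at 0.27 ± 0.13 (adjusted p = 0.276) in U266/LR7. The melphalan arrays of both were above those without the drug. PARP1 stood at -0.16 ± 0.12 (adjusted p = 0.546), and MGMT at 0.15 ± 0.15 (adjusted p = 0.668), of which the pair without inhibitors gave 0.31, and its melphalan arrays overlapped those without the drug. The other 5 lay between -0.06 and 0.13. The members' median was 0.11 and that of all genes 0.05.

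**Figure D4:**
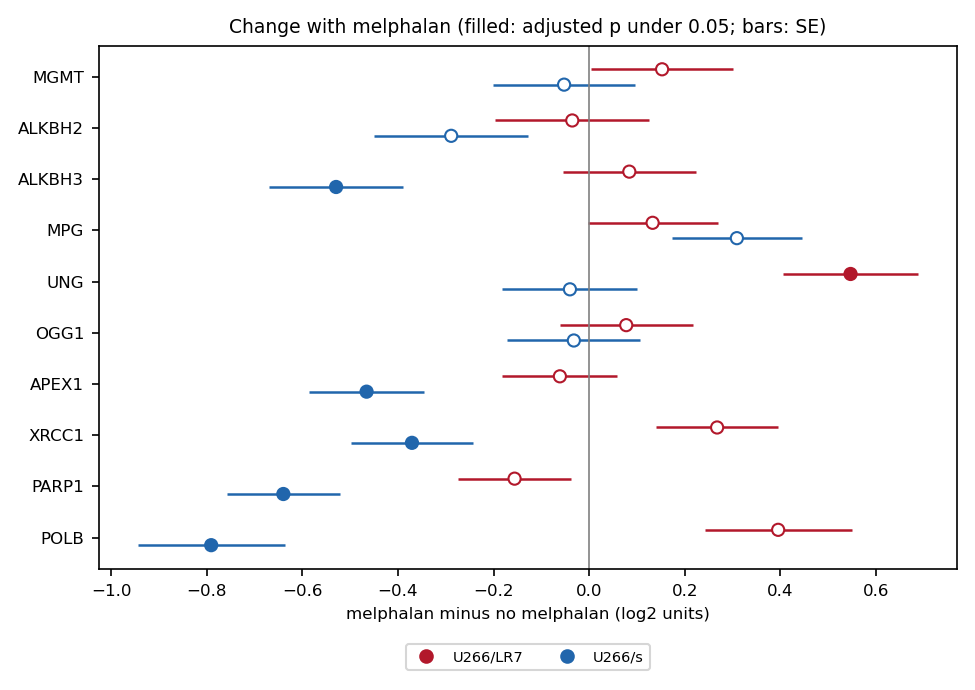
Melphalan minus no melphalan in log2 units for each gene in U266/LR7 (red) and U266/s (blue). Bars are the SE, and filled points have an adjusted p under 0.05. In U266/s 5 genes are filled, all below 0, and in U266/LR7 only UNG (0.55).

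The response to melphalan differed between the lines for 3 of the 10 genes by the melphalan by line interaction, POLB, XRCC1 and ALKBH3, all positive, so that the change in U266/LR7 lay above that in U266/s. Of all genes, 23.9% passed (17.9% positive and 5.99% negative), so the count is close to the background. The members' median interaction was 0.44, with 9 of 10 above 0, against -0.01 over all genes. Of the members, 6 lie in the brightest quartile of genes, where the median change was 0.06 in U266/LR7 and -0.26 in U266/s. The part of brightness in the members' interactions was not tested. POLB had the largest, 1.19 ± 0.22 (adjusted p = 0.00243), with changes of 0.40 in U266/LR7 and -0.79 in U266/s, and it passed in all 17 settings. XRCC1 had 0.64 ± 0.18 (adjusted p = 0.0243), and was at 0.53 (adjusted p = 0.176) without the U266/LR7 melphalan array, and at 0.60 (adjusted p = 0.128), 0.54 (adjusted p = 0.108) and 0.68 (adjusted p = 0.0651) without the U266/s control, melphalan and inhibitor arrays.

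ALKBH3 had 0.61 ± 0.20 (adjusted p = 0.0427) and passed in 5 of 17 settings, with values of 0.52 to 0.71 without single arrays and adjusted p up to 0.251. UNG (0.59 ± 0.20, adjusted p = 0.0538), PARP1 (0.48 ± 0.17, adjusted p = 0.0568) and APEX1 (0.40 ± 0.17, adjusted p = 0.112) did not pass, and each did in 3 of the settings. Those of ALKBH2 (0.25), MGMT (0.21), OGG1 (0.11) and MPG (-0.18) were smaller than or near their SE of 0.19 to 0.23.

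The inhibitors bind miR-221 and miR-222, whose mature strands from RefSeq (GRCh38.p14, chromosome X) share 1 seed, bases 2 to 8, in capitals.
hsa-miR-221-3p: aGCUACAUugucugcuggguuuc
hsa-miR-222-3p: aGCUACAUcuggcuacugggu

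With the inhibitors, 0 of the 10 genes passed in limma, against 0.0434% of all genes (0.0271% higher and 0.0163% lower). An unadjusted limma p under 0.05 was found for 1 of the 10 and for 1161 of all 18417 genes. This count does not set the members apart. The member was OGG1, at 0.25 ± 0.10 over the 4 matched pairs (adjusted p = 0.714). By the transfection labels the pairs are unlike: the inhibitors stand against no transfection with melphalan and against the negative control without it. Its difference was positive in all 4 pairs: 0.32 with and 0.26 without melphalan in U266/LR7, and 0.27 with and 0.16 without melphalan in U266/s. ALKBH3 was positive in the 4 pairs too, at 0.15 ± 0.10 (adjusted p = 0.862), although the U266/LR7 melphalan pair differed by only 0.01. The share of all genes positive in the 4 pairs was not counted. The other 8 members lay between -0.07 and 0.10, each with an SE of 0.08 to 0.11.

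Other genes of these pathways were taken from a list of 44, of which 41 were measured here, and the rest were not analysed. In U266/LR7 against U266/s, 22 were higher and 5 lower with melphalan (median 0.39), and 12 were higher and 6 lower without (median 0.15). Over all genes 27.7% were higher and 24.0% lower with melphalan (median -0.08), and 16.9% and 17.8% without (median -0.04). ALKBH1, another AlkB relative, was higher in U266/LR7 by 2.12 ± 0.15 with melphalan (adjusted p = 1.14e-06) and by 0.52 without, and POLD3, a subunit of DNA polymerase delta, by 1.76 with melphalan. PARP2, which shares break sensing with PARP1, was higher in the resistant line in both states, by 1.38 with melphalan and 0.97 without, opposite to PARP1. Of the 5 other poly(ADP-ribose) genes 4 were higher in each state, against 27.7% of all genes with melphalan and 16.9% without.

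In U266/LR7 without melphalan the glycosylase NEIL3 (-1.35 ± 0.22, adjusted p = 0.000434), the nucleotide hydrolase SAMHD1 (-1.16 ± 0.17, adjusted p = 0.000256) and ASCC3, the helicase that unwinds DNA for ALKBH3 (-0.85 ± 0.19, adjusted p = 0.00393), were lower. Of the 8 other glycosylases 0 were higher and 3 lower without melphalan, against 16.9% and 17.8% of all genes. With melphalan 2 were higher and 2 lower, against 27.7% and 24.0% of all genes, or 51.7% in both directions.

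With melphalan in U266/s, 19 of the 41 fell and 9 rose (median -0.28), and in U266/LR7 2 fell and 0 rose (median 0.17). Over all genes 24.9% fell and 18.4% rose in U266/s, and 3.61% fell and 3.02% rose in U266/LR7. Of the 23 genes of the list in the brightest quartile 13 fell and 4 rose in U266/s, against 42.7% and 15.6% of all genes there. ASCC3 fell in both, by 1.48 ± 0.19 in U266/LR7 (adjusted p = 0.00124) and 1.93 ± 0.19 in U266/s (adjusted p = 1.67e-05). Its signal was 6.33 and 6.30 with melphalan and 8.14 and 7.45 without (with and without inhibitors) in U266/LR7, against 6.86 and 6.55 with and 8.57 and 8.72 without in U266/s. FTO, an AlkB family RNA demethylase, fell by 1.69 ± 0.16 in U266/LR7 (adjusted p = 0.000261) and by 0.77 in U266/s (adjusted p = 0.00271). In U266/s SAMHD1 (-1.58), NEIL3 (-1.51) and PARG (-1.40), the poly(ADP-ribose) hydrolase, fell as well.

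All 5 mismatch repair genes measured fell in U266/s with melphalan, by 0.43 (PMS2) to 1.04 (MSH3), and none of them passed in U266/LR7. All 5 are in the brightest quartile, where 42.7% of genes fell in U266/s, against 24.9% of all genes. All 5 were higher in U266/LR7 than in U266/s on the melphalan arrays, led by EXO1 at 1.43 ± 0.16 (adjusted p = 2.84e-05), and 1, PMS2, without melphalan (0.48). Of all genes 27.7% were higher with melphalan and 16.9% without. The comparison with melphalan uses the same U266/s melphalan arrays as the falls, so it is not a separate result. PMS2 has near-identical copies in the genome and its signal may hold them. PMS2 and MSH3 were named after their values were seen, as the ends of the range. By the interaction 11 of the 41 passed with a positive and 2 with a negative sign, against 17.9% and 5.99% of all genes, the largest being SAMHD1 (1.65 ± 0.24, adjusted p = 0.000781), POLD3 (1.62), ALKBH1 (1.60) and NEIL3 (1.42). With the inhibitors 0 of 41 passed in limma, against 0.0434% of all genes. Of the 41, 1 had an unadjusted limma p under 0.05, as had 1161 of all 18417 genes.

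**Figure D5:**
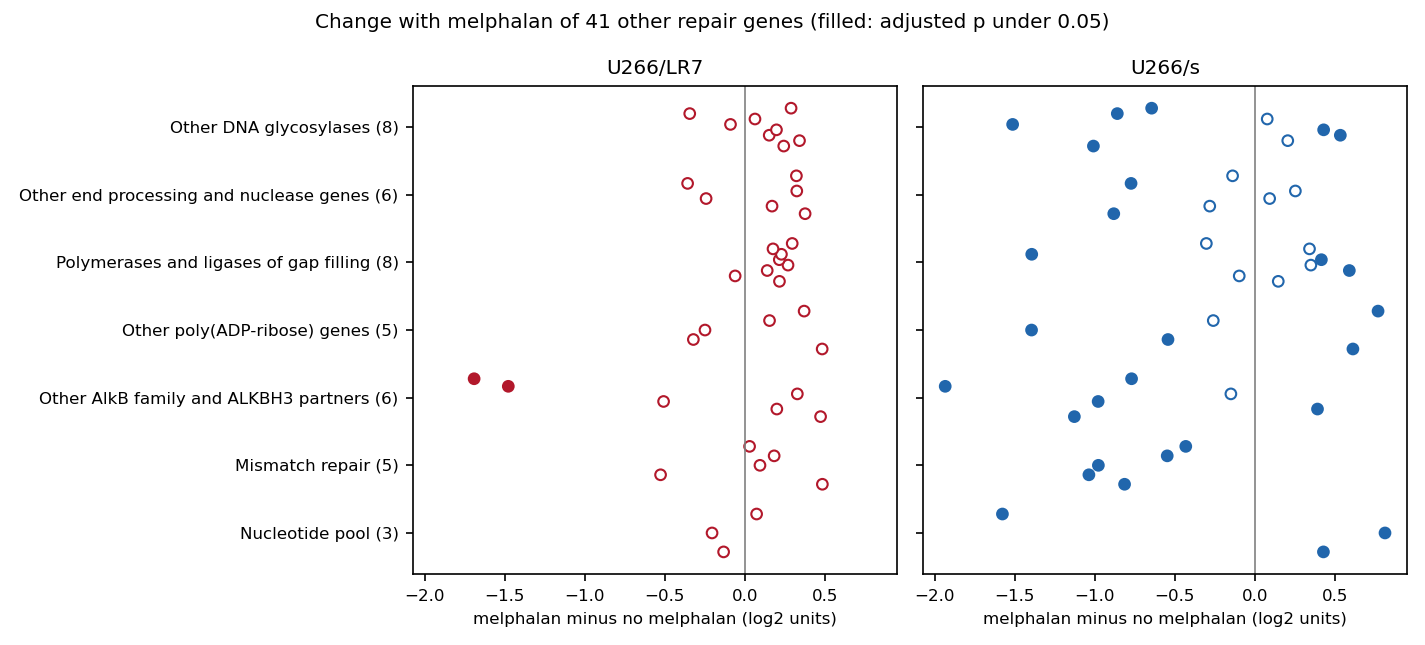
Melphalan minus no melphalan in log2 units for the 41 other repair genes in U266/LR7 (left) and U266/s (right), 1 point per gene and 1 row per group, with the number of genes in brackets. Filled points have an adjusted p under 0.05. In U266/s all 5 mismatch repair genes are filled below 0, and in U266/LR7 only FTO and ASCC3 are filled.

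ALKBH2 had the widest range of the members over the 8 arrays, 1.41 log2 units. The genes most like it, by the mean absolute difference after centring each gene on its own mean over 8 arrays, were ARPC3 (0.05), MRPL22 (0.08) and MRPL45 (0.09). This is a description over 8 arrays.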

How the data were processed

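Total RNA of 8 samples was measured, 1 array per condition. The deposited values are log2 RMA signal from Affymetrix Expression Console, per the submitters' processing notes. No source used here gives their versions or a genome build. The array number limits the precision, and no label names separate cultures. The p-values therefore cover just the scatter among these 8 arrays, possibly technical. With 1 array per condition, that scatter is how the pairs with and without inhibitors differ from each other. In limma the SE of each gene also draws on the scatter of other genes of like brightness. For MPG the SE of the line difference was 0.14, while its own residual SD was 0.03. Of 33297 clusters, 19460 had 1 symbol in the platform annotation, 1754 several and 12083 none there; 19429 of the first were updated through the gene ID. The brightest cluster stood for each of 18417 genes. All genes were fitted with limma 3.58.1 (R 4.3.3; eBayes with intensity trend) using line, melphalan, their interaction and inhibitors, which left 3 residual degrees of freedom, with Benjamini-Hochberg adjustment over all genes and a threshold of 0.05. Contrasts share arrays. The code was also run on simulated data with independent noise and few changed genes. That setting is unlike these data, so it says nothing about the calls here.

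The members, the wider list and the markers were chosen with earlier results of these data known. The text names all 10 members, the 4 listed genes of largest change among those called in each contrast, whole small groups, and 3 genes most like the member of widest range. Alternatives were other normalizations, filters, models and leaving out each array.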

Additional observations from a re-analysis of the deposited data

Results flagged for a closer look

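The change with melphalan differed between U266/LR7 and U266/s by the interaction test for 3 of 10 members, close to the background of 23.9% of all genes (17.9% positive). POLB differed by 1.19 ± 0.22 log2 units (limma adjusted p = 0.00243), XRCC1 by 0.64 ± 0.18 (adjusted p = 0.0243) and ALKBH3 by 0.61 ± 0.20 (adjusted p = 0.0427). In each, the value in U266/LR7 was above that in U266/s. The value of POLB was between 1.01 and 1.37 without any 1 array, and it kept its call in all 17 settings. ALKBH3 kept its call in 5 of 17. XRCC1 kept it in 13 of 17 and lost it without the U266/LR7 melphalan array (0.53, adjusted p = 0.176) and without the U266/s control (0.60), melphalan (0.54) or inhibitor array (0.68). No group holds enough samples of 1 condition to look for a single array far from the others.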

How the results depend on the processing

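Of the calls on line differences with and without melphalan, the counts of members (9 and 7) stayed at 7 to 10 and 5 to 7 without single arrays, and no other setting moved them by over 1.5 times. Members changed by melphalan in U266/s numbered 5, but 3 with transfection as 3 levels, 0 in the additive model, which averages the lines, and 1 to 5 without single arrays, lowest without the U266/s control array. In U266/LR7 the count of 1 was 0 with median centring, median centring over genes, cyclic loess, all two-way interactions, transfection as 3 levels and the additive model, and 0 to 1 without single arrays. The interaction count of 3 was 5 with median centring and among genes above the median signal, and 1 to 5 without single arrays. The inhibitor count was 0 in every setting. The share of all genes called moved too, also without single arrays. Of those runs, melphalan in U266/s and the interaction had their lowest share without the U266/s control array. The member counts without single arrays thus do not set the members apart. For melphalan in U266/s the share was 43.4%, but 31.9% with transfection as 3 levels and 4.55% in the additive model. For melphalan in U266/LR7 it was 6.62%, and 3.69% to 6.64% in the settings named above that kept every array. For the interaction it was 23.9%, but 25.3% with median centring and 40.4% among genes above the median signal. POLB between the lines without melphalan turned to 0.11 (adjusted p = 0.753) in the additive model, since that model averages opposite differences. Of the gene values under alternatives 979 kept their side of the threshold, 69 lost a call at the same sign and 15 gained one. A further 1, that of POLB above, lost its call and changed sign. The 979 include values that were not called in the main model and stayed so, so they do not measure how stable the calls were. Some of these uncalled values changed sign. UNG with melphalan in U266/s, for example, was -0.04 in the main model and 0.11 with quantile normalization.

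Scaling mattered for all genes: the median change with melphalan in U266/s was 0.08, but -0.07 with median centring over all clusters and 0.14 with median centring over genes, which was chosen after seeing the data. The share of calls in U266/s that were higher was 42.5%, but 23.6%, 29.9% and 51.3% with median centring, cyclic loess and median centring over genes. For the line difference with melphalan it was 53.6%, and 67.4% with median centring. For melphalan in U266/LR7 it was 45.6%, and 34.4% with cyclic loess. For the interaction it was 74.9%, and 85.4% and 63.4% with median centring over clusters and over genes. For the inhibitors it was 62.5% of 8 calls, and 75%, 41.7% and 100% with median centring, median centring over genes and cyclic loess. No paired analysis by replicate number was possible because the labels give no such numbers and each condition has 1 array. The model matches arrays with and without inhibitors within a line and drug state. No detection calls were used.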

Other observations

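Promoter windows of the remaining members with an entry in the RefSeq table were searched for the same motifs. ALKBH3 had 1 ETS site and 1 CCAAT box. With ALKBH2 and OGG1, 3 of the 9 members with a window held the ETS site, against 4.14% of all windows. These 3 windows held 21 to 24 CpG, against a median of 14 over all windows, and windows matched for CpG were not searched. APEX1 held 3 E-boxes, a motif found in 7.26% of all windows, and no GC box. The windows of the 2 annotated UNG starts held 2 and 3 GC boxes, and the second also held 2 E-boxes. MPG had 3 GC boxes and 34 CpG dinucleotides, and XRCC1 had 1 GC box, 1 CCAAT box and 31 CpG.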
